A study of Mus musculus with 4 samples.

Results

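The mir-9 and mir-124 hairpins are the 6 mouse microRNA genes Mir9-1, Mir9-2, Mir9-3, Mir124a-1, Mir124a-2 and Mir124a-3, out of 2202 annotated miRNA hairpins. They were followed here in small RNA of fetal liver, a tissue that is not neural. Their reads were taken as all reads of 18 to 27 nt that match 1 of the 6 hairpins without a mismatch. The study sequenced 2 libraries of livers with catalytic dead Ago2 (Ago2 CD) and 2 libraries of wildtype livers, which its design text calls biological replicates. The labels give no age and no strain, and they do not say whether a library holds 1 liver or several. The libraries held 21875540 reads (Ago2 CD replicate 1), 15238066 reads (Ago2 CD replicate 2), 15841697 reads (wildtype replicate 1) and 13138065 reads (wildtype replicate 2). Their longest read was 46 nt in Ago2 CD replicate 1 and wildtype replicate 2, and 50 nt in Ago2 CD replicate 2 and wildtype replicate 1. Each of these read lengths therefore held 1 library of each genotype. The 6 hairpins had been chosen because their levels differ between libraries of the 2 read lengths, so that difference is described and not tested.

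miRNAs are cut from hairpin transcripts as short duplexes, and 1 strand of the duplex, the 5p or the 3p arm, is usually kept by an Argonaute protein. Base pairing through the seed, bases 2 to 8 of the mature miRNA, then directs Argonaute to target mRNAs. miR-9 is known from neural progenitors and young neurons, where it represses Rest and Nr2e1, and it is known to supply functional strands from both arms. miR-124 is known as an abundant miRNA of neurons and represses Ptbp1, a splicing factor of non-neuronal cells. AGO2 is the mammalian Argonaute best known for cutting RNA, and the catalytic dead protein binds miRNAs but does not cut.

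RefSeq (GRCm38.p6) held sequences for 3 of the 6 hairpins, all of mir-9. They are shown because nearly all mir-9 reads lie in the stretches that these hairpins share. Capitals mark the mature arms, and all 3 lie on the plus strand. Mir9-1 lies at chr3:88215598-88215686, Mir9-2 at chr13:83738814-83738885 and Mir9-3 at chr7:79505264-79505353.
Mir9-1: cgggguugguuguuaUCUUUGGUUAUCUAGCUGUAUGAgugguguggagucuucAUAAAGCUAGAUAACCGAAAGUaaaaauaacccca
Mir9-2: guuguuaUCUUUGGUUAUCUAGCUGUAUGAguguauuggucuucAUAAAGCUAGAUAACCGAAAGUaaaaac
Mir9-3: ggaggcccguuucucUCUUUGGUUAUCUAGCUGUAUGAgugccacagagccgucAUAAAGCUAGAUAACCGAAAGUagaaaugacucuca
Both arms have the same mature sequence in the 3 hairpins, which differ in the loop of 14 or 16 nt and in the stem outside the arms. The mature sequences are given with the seed in capitals. The arms have different seeds.
miR-9-5p: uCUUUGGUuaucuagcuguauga
miR-9-3p: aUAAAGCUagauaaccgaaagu

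In the annotation used (GENCODE vM21, GRCm38), each mir-9 hairpin lies inside a longer non-coding gene of the same strand. Mir9-1 lies in an intron of Gm3764 and Mir9-3 in an intron of Mir9-3hg, and Mir9-2 is exonic in 1 of 5 transcripts of C130071C03Rik. Mir124a-1 (chr14:64590657-64590741) is exonic in 1 of 4 transcripts of Mir124a-1hg, Mir124a-2 (chr3:17795662-17795770) is intronic in Mir124-2hg, and Mir124a-3 (chr2:180894040-180894107) overlaps the start of Gm27032. Reads on any annotated miRNA hairpin, and reads that also match another gene, were left out of the search for fragments of these 6 longer genes. Among the remaining reads of at least 20 nt, none matched any of them in any library. The share of all long non-coding genes without such a read was not counted.

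Counted by exact match, mir-9 and mir-124 were much more frequent in the 46 nt libraries of either genotype than in the 50 nt libraries. miR-9-5p had 4297 reads in Ago2 CD replicate 1 and 131 in Ago2 CD replicate 2, against 62 in wildtype replicate 1 and 1473 in wildtype replicate 2. As CPM, counts per 1000000 on library sizes scaled by TMM, these were 216 and 13.8 CPM in Ago2 CD livers, against 10.4 and 166 CPM in wildtype livers. The high library of each genotype is its 46 nt library, and the genotypes overlap. miR-9-3p, the less frequent arm, had 868 and 20 reads in Ago2 CD livers (43.6 and 2.10 CPM), against 13 and 341 reads in wildtype livers (2.18 and 38.5 CPM). miR-124-3p, the arm that makes up mature miR-124, had 1120 and 6 reads in Ago2 CD livers (56.2 and 0.631 CPM), against 3 and 568 reads in wildtype livers (0.503 and 64.2 CPM). Both arms share with miR-9-5p 1 high library per genotype, the 46 nt library, and 1 low library, the 50 nt library. miR-124-5p had 1 read, in wildtype replicate 2, and none in the other libraries.

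The genotypes did not differ beyond the spread between replicates in any of these arms. Of 582 arms tested, 0.172% were called higher and 0.172% lower in Ago2 CD livers by edgeR's quasi-likelihood test at an adjusted p under 0.05, 1 arm in each direction or 0.344% in all, and neither came from mir-9 or mir-124. The arm called lower was miR-451a, whose maturation needs cutting by AGO2, with 1203 and 965 CPM in Ago2 CD livers against 841577 and 415567 CPM in wildtype livers, a difference in the direction that the genotype labels imply. The arm called higher was miR-486-3p. miR-9-5p averaged 115 ± 143 CPM in Ago2 CD livers and 88.4 ± 110 CPM in wildtype livers (SD, n = 2 each). Its log2 fold change was 0.38 (SE 1.69, edgeR adjusted p = 0.997). The fold change of miR-9-3p was 0.17 on the log2 scale (SE 1.76) and that of miR-124-3p was -0.19 (SE 2.38), each with an edgeR adjusted p of 0.997. miR-124-5p did not pass the filter on low counts and was not tested. Within the 46 nt pair, the log2 difference of Ago2 CD over wildtype was 0.37 for miR-9-5p, 0.18 for miR-9-3p and -0.19 for miR-124-3p. Within the 50 nt pair it was 0.40, -0.046 and 0.25 for the same arms, with 1 library per genotype in each pair. With read length as a batch term the standard errors of the same counts were smaller, and no arm of mir-9 or mir-124 passed the threshold. The log2 fold change was then 0.39 for miR-9-5p (SE 0.18, edgeR adjusted p = 0.252), 0.10 for miR-9-3p (SE 0.26, edgeR adjusted p = 0.856) and -0.10 for miR-124-3p (SE 0.29, edgeR adjusted p = 0.870). That fit called 8 arms higher and 8 lower in all.

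Set against the 50 nt libraries, the mean level in the 46 nt libraries was 15.8-fold higher for miR-9-5p, 19.2-fold for miR-9-3p and 106-fold for miR-124-3p. The last ratio rests on 6 and 3 reads in the 50 nt libraries. Over all 582 arms, the median log2 ratio of 46 nt over 50 nt libraries was -0.043, and 29.6% of arms lay higher in both 46 nt libraries than in both 50 nt libraries. A ratio of 8-fold or more was found for 7 arms (1.20%), 3 of them those of mir-9 and mir-124. Just outside the length limits of 18 and 27 nt, reads of 16 and 17 nt on the mir-9 hairpins numbered 124 and 7 in Ago2 CD livers, against 3 and 40 in wildtype livers. Reads of 28 nt or more, and antisense reads, were absent for all 6 hairpins.

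The reads that match no hairpin hold most of the mir-9 sequence of the 50 nt libraries. In these libraries, the complete mature sequence stood mostly inside a read that was longer by 2 bases at either end. The most frequent such reads are shown beside the mature read itself, with the bases outside the mature sequence in capitals.
miR-9-5p read, nothing added: tctttggttatctagctgtatga
miR-9-5p read with added bases 1: AGtctttggttatctagctgtatgaGA
miR-9-5p read with added bases 2: AGtctttggttatctagctgtatgaCT
miR-9-5p read with added bases 3: ATtctttggttatctagctgtatgaCT
miR-9-5p read with added bases 4: GTtctttggttatctagctgtatgaGA
miR-9-3p read, nothing added: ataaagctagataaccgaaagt
miR-9-3p read with added bases 1: GAataaagctagataaccgaaagtCT
miR-9-3p read with added bases 2: GGataaagctagataaccgaaagtCT
The first of these, the unextended miR-9-5p read, was counted 1898 and 16 times in Ago2 CD livers, against 2 and 643 times in wildtype livers. Its most frequent extended form, the second line, was counted 0 and 32 times in Ago2 CD livers, against 19 and 0 times in wildtype livers. The unextended read is thus frequent in the 46 nt libraries, and the extended read was seen in the 50 nt libraries and in neither 46 nt library.

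Of the reads that hold the whole miR-9-5p sequence, 71.7% of 995 in Ago2 CD replicate 2 and 77.9% of 655 in wildtype replicate 1, the 50 nt libraries, had 2 bases before it and 2 after it. In the 46 nt libraries this was 0 of 1989 reads in Ago2 CD replicate 1 and 0 of 675 in wildtype replicate 2. There, 95.4% of the reads in Ago2 CD replicate 1 and 95.3% in wildtype replicate 2 were the mature sequence with nothing added. For miR-9-3p, 65.8% of 199 reads in Ago2 CD replicate 2 and 57.1% of 154 in wildtype replicate 1 had 2 bases at each end, and again none did in the 46 nt libraries. The added bases were varied. Of the 16 possible pairs, 15 stood before the first 18 nt of miR-9-5p in each 50 nt library, and the most frequent pair, AG, made up 15.5% in Ago2 CD replicate 2 and 13.5% in wildtype replicate 1. The pairs that the hairpins hold there, TA and TC, made up 219 of 1599 reads in Ago2 CD replicate 2 and 116 of 1032 in wildtype replicate 1. Over both ends at once, 152 of 256 possible combinations were seen in Ago2 CD replicate 2 and 143 in wildtype replicate 1.

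miR-124-3p showed the same arrangement. Reads holding the first 18 nt of its most frequent form began with them in 80.9% of 1334 reads in Ago2 CD replicate 1 and 90.0% of 677 in wildtype replicate 2. In the 50 nt libraries they began at base 3 of the read in 77.2% of 569 reads in Ago2 CD replicate 2 (exact 95% interval 73.5% to 80.5%) and in 76.0% of 275 in wildtype replicate 1 (70.5% to 80.9%). For miR-9-5p, the start lay at base 3 in 91.1% of 1756 reads in Ago2 CD replicate 2 (89.6% to 92.4%) and 94.2% of 1096 in wildtype replicate 1 (92.6% to 95.5%). The same share was 0.565% of 4424 reads in Ago2 CD replicate 1 and 0.258% of 1549 in wildtype replicate 2. The shares of the 2 groups of libraries do not overlap for any of the 3 arms. For miR-9-3p the share at base 3 was 0.905% and 76.0% in the Ago2 CD libraries, against 78.8% and 0% in the wildtype libraries. The 18 nt of miR-9-3p begin at the RefSeq end, so its molecules that start further in are not counted here. The 0% stands for 0 of 171 reads, for which the exact interval reaches 2.13%. These intervals cover counting error only, since no molecular identifiers were used in counting the reads.

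**Figure D1:**
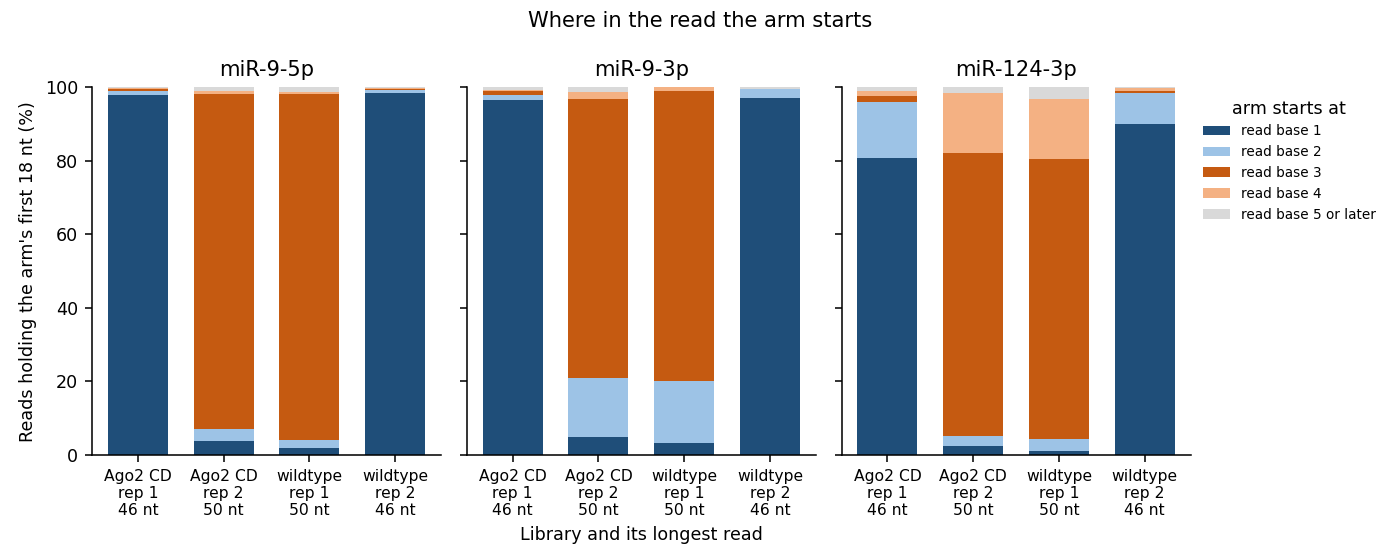
Position in the read at which the first 18 nt of the arm start, as a share of the reads that hold them (vertical axis, %), for the Ago2 CD libraries and then the wildtype libraries (horizontal axis, with each library's longest read). In both 46 nt libraries the dark blue part, a start at read base 1, makes up 80.9% or more, and in both 50 nt libraries the orange part, a start at read base 3, makes up 76.0% or more.

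With 2 bases taken off each end, the reads of the 50 nt libraries had the lengths of the 46 nt libraries. miR-9-5p reads that start at base 1 were most often 23 nt long in the 46 nt libraries, in 52.7% of them in Ago2 CD replicate 1 and 52.9% in wildtype replicate 2. Those that start at base 3 were most often 27 nt long in the 50 nt libraries, in 54.4% in Ago2 CD replicate 2 and 58.2% in wildtype replicate 1. For miR-9-3p the most frequent lengths were 22 nt in the 46 nt libraries and 26 nt in the 50 nt libraries. For miR-124-3p they were 21 nt and 25 nt. All 3 arms thus have the same offset of 4 nt, which is also the difference between the longest reads of the 2 groups of libraries. Whether the offset and the longest read are linked was not tested.

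**Figure D2:**
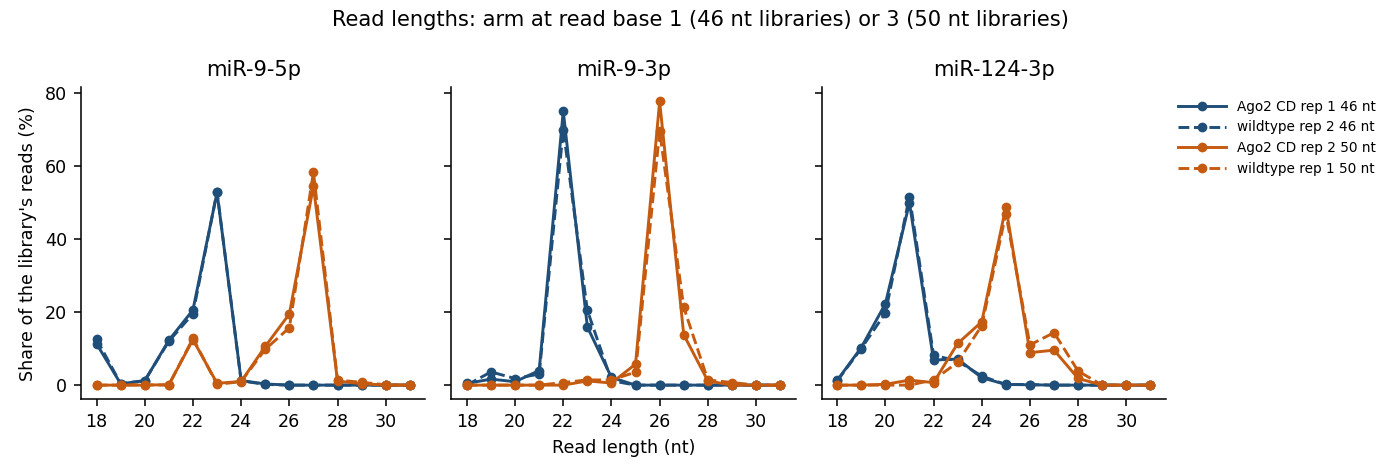
Length of reads (horizontal axis, nt) that start with the arm in the 46 nt libraries (blue) or hold it from read base 3 in the 50 nt libraries (orange), as a share of those reads in each library (vertical axis, %). Solid lines are Ago2 CD libraries and dashed lines wildtype libraries, and the most frequent length lies 4 nt higher in the 50 nt libraries for each arm.

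Counting the reads that match a hairpin once 2 bases are removed from each end brought the libraries close together. Such reads of miR-9-5p numbered 105 and 1274 in Ago2 CD livers, against 859 and 38 in wildtype livers. For miR-9-3p there were 30 and 351 in Ago2 CD livers, against 259 and 10 in wildtype livers. For miR-124-3p there were 43 and 441 in Ago2 CD livers, against 210 and 7 in wildtype livers. They made up between 90.7% and 98.7% of the summed reads of an arm in the 50 nt libraries and between 1.22% and 3.70% in the 46 nt libraries. With these reads added, miR-9-5p stood at 222 and 143 CPM in Ago2 CD livers, against 147 and 170 CPM in wildtype livers. miR-9-3p stood at 45.2 and 37.7 CPM in Ago2 CD livers, against 43.4 and 39.5 CPM in wildtype livers. miR-124-3p stood at 58.6 and 45.4 CPM in Ago2 CD livers, against 34.0 and 64.7 CPM in wildtype livers. The level in 46 nt over 50 nt libraries was then 1.35-fold for miR-9-5p, 1.04-fold for miR-9-3p, whose libraries now overlap, and 1.55-fold for miR-124-3p. Counting instead every read with the first 18 nt of the arm at base 1 or 3 gave 1.29-fold, 1.06-fold and 1.74-fold for the same arms. By that count, 31.2% of 619 arms lay higher in both 46 nt libraries. Both ways of counting were chosen after seeing the data.

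**Figure D3:**
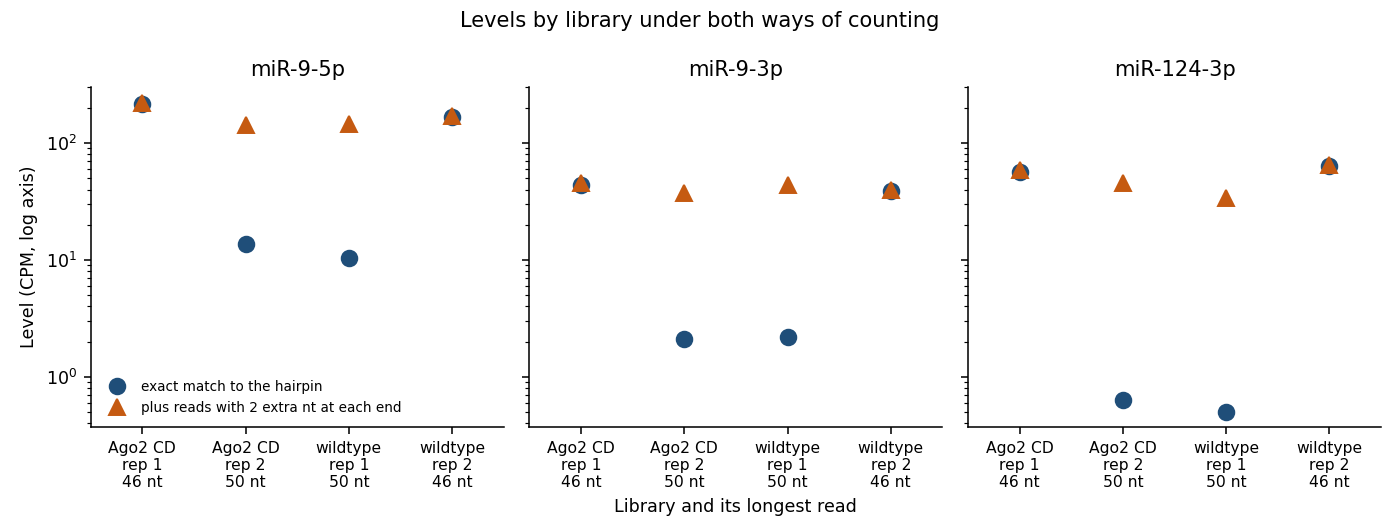
Level of the 3 arms (vertical axis, CPM on a log scale) in the Ago2 CD libraries and then the wildtype libraries (horizontal axis, with each library's longest read), 1 point per library and way of counting. By exact match (circles) the 50 nt libraries lie 15.8-fold to 106-fold below the 46 nt libraries, and with extended reads added (triangles) 1.04-fold to 1.55-fold below.

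With the extended reads counted, no arm of mir-9 or mir-124 passed the genotype threshold. With 2 extra bases at each end, the log2 fold change of Ago2 CD over wildtype was 0.20 for miR-9-5p (SE 0.35), 0.00029 for miR-9-3p (SE 0.33) and 0.074 for miR-124-3p (SE 0.44), each with an edgeR adjusted p of 1.00. With the first 18 nt at base 1 or 3 it was 0.19 for miR-9-5p (SE 0.37), -0.061 for miR-9-3p (SE 0.39) and -0.042 for miR-124-3p (SE 0.51), each with an edgeR adjusted p of 0.996. With read length as a batch term beside that count, the fold change of miR-9-5p was 0.16 (SE 0.17, edgeR adjusted p = 0.617).

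Reads extended in this way were rare on most miRNAs. Over the 435 arms with at least 100 reads in the 50 nt libraries, the median share of reads with 2 bases in front that the hairpin does not hold was 0.427% in the 50 nt libraries and 0.445% in the 46 nt libraries. In the 50 nt libraries the share was above 40% for 7 arms, a limit set after seeing the values, and 3 of these were miR-9-5p (80.5% of 2852 reads), miR-124-3p (75.5% of 844) and miR-9-3p (71.1% of 408). The other 4 were miR-135b-5p (77.4%), miR-153-3p (70.7%), miR-135a-5p (53.1%) and miR-204-5p (41.2%). In the 46 nt libraries the share of these 7 arms lay between 0.464% and 2.27%. miR-144-3p, an erythroid miRNA and one of the most abundant in these libraries, had 0.453% and 0.447% in Ago2 CD livers, against 0.358% and 0.512% in wildtype livers. The added bases therefore did not occur at one rate across the miRNAs of a 50 nt library. Some small RNA kits place random bases at the adapter ends; whether these libraries used such adapters is not given in the sources used here, and the source of the added bases was not tested.

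**Figure D4:**
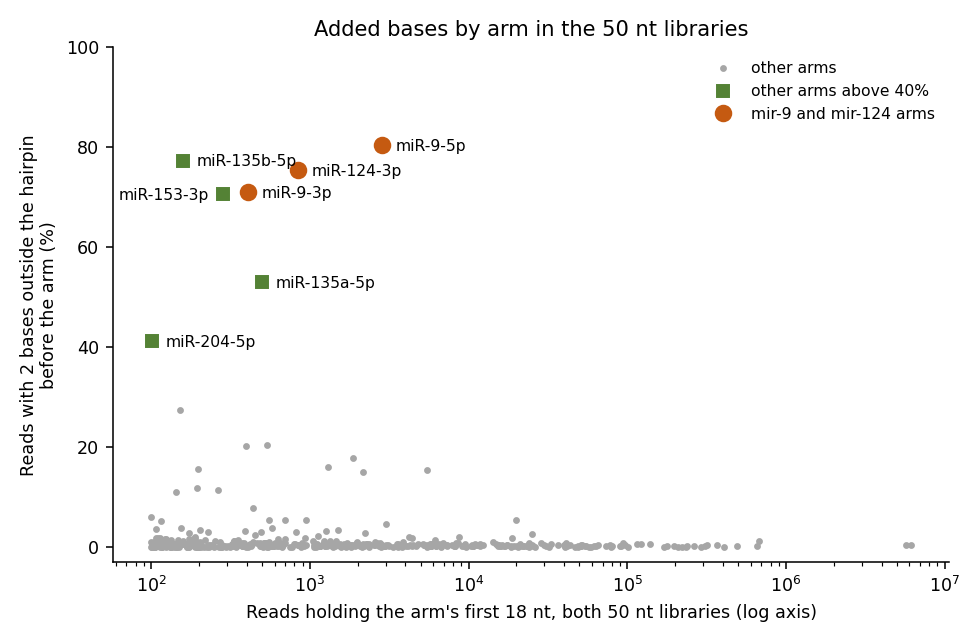
Share of reads with 2 bases before the arm that its hairpin does not hold (vertical axis, %) against the reads that hold the arm's first 18 nt (horizontal axis, log scale), both 50 nt libraries summed, for 435 arms. The arms of mir-9 and mir-124 (orange) and 4 others (green) lie above 40%, and the median of all arms is 0.427%.

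Nearly all exact reads lay in stretches common to the hairpins of a family. For miR-9-5p, reads that match all 3 hairpins numbered 4277 and 83 in Ago2 CD livers, against 36 and 1467 in wildtype livers. Reads that match Mir9-3 alone numbered 9 and 32 in Ago2 CD livers, against 15 and 5 in wildtype livers. Reads that match Mir9-1 and Mir9-2 but not Mir9-3 numbered 11 and 16 in Ago2 CD livers, against 11 and 1 in wildtype livers. The hairpin-specific reads make up a larger part in the 50 nt libraries, where bases outside the mature ends are also frequent, so they do not show which gene was the source. All miR-124 reads matched the 3 mir-124 hairpins alike.

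The 5′ ends of the exact mir-9 reads were alike in the 46 nt libraries of both genotypes, and those of miR-124-3p differed more. miR-9-5p started at the RefSeq 5′ end in 88.1% of reads in Ago2 CD replicate 1 and in 88.8% in wildtype replicate 2. In the 50 nt libraries this was 51.5% in Ago2 CD replicate 2 and 31.9% in wildtype replicate 1, of the 99 and 47 reads that match Mir9-1. miR-9-3p had a pair of frequent 5′ ends. In the 46 nt libraries, 45.7% of its reads in Ago2 CD replicate 1 and 44.4% in wildtype replicate 2 began at the RefSeq end, and 49.8% in Ago2 CD replicate 1 and 52.4% in wildtype replicate 2 began 1 base further in. A start 1 base further in moves the seed by 1 base. miR-124-3p began at its most frequent end in 81.6% of reads in Ago2 CD replicate 1 and 89.4% in wildtype replicate 2, and 1 base earlier in 13.9% in Ago2 CD replicate 1 and 7.75% in wildtype replicate 2.

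By length, 44.3% of exact miR-9-5p reads were 23 nt long in Ago2 CD replicate 1 and 43.8% in wildtype replicate 2, with a further 13.2% and 14.6% at 18 nt in the same libraries. miR-9-3p was mostly 22 nt long, in 60.8% of its reads in Ago2 CD replicate 1 and 60.7% in wildtype replicate 2. miR-124-3p was mostly 21 nt long, in 48.7% in Ago2 CD replicate 1 and 52.5% in wildtype replicate 2. The mean length of miR-9-5p was 21.5 ± 0.0906 nt in Ago2 CD livers and 21.6 ± 0.00266 nt in wildtype livers (SD, n = 2 each). The difference of -0.03 nt was within the spread between replicates (two-sided exact permutation test, p = 1, where the smallest p that 2 libraries against 2 allow is 0.333).

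The share of the 3p arm among exact mir-9 reads was 16.8% and 13.2% in Ago2 CD livers, against 17.3% and 18.8% in wildtype livers. The intervals of the 50 nt libraries are wide, 8.28% to 19.7% in Ago2 CD replicate 2 and 9.57% to 27.8% in wildtype replicate 1. The log2 ratio of 3p to 5p reads was lower by 0.33 in Ago2 CD livers (change -0.33, SE 0.49, limma adjusted p = 0.995), and 0.707% of 283 hairpins tested were called. Among extended reads the 3p share was 22.2% and 21.6% in Ago2 CD livers, against 23.2% and 20.8% in wildtype livers. The arm ratio of mir-9 was therefore not distinguishable between genotypes by either count.

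Reads that match a hairpin only after 1 to 3 bases are removed from the 3′ end are called tailed. Of exact and tailed miR-9-5p reads together, tailed reads made up 11.2% and 68.7% in Ago2 CD livers, against 71.6% and 12.4% in wildtype livers. The high library of each genotype is its 50 nt library. Summed over all arms, tailed reads made up 9.12% and 22.7% in Ago2 CD livers, against 17.1% and 6.97% in wildtype livers. miR-9-3p had 6.06% and 60.0% in Ago2 CD livers, against 59.4% and 7.34% in wildtype livers, and miR-124-3p had 16.5% and 80.0% in Ago2 CD livers, against 3 of 6 reads and 17.9% in wildtype livers. The log2 ratio of tailed to untailed miR-9-5p reads differed by -0.18 between Ago2 CD and wildtype livers (SE 2.04, limma adjusted p = 0.9997), and 0% of 277 arms were called. Bases added after the 3′ end are counted here as tails whatever their source. Reads that match a hairpin only once bases are taken off both ends are outside the totals behind these shares. For miR-9-5p, the totals were 419 reads in Ago2 CD replicate 2 and 218 in wildtype replicate 1, the 50 nt libraries. Reads that match once 2 bases are removed from each end numbered 1274 and 859 in the same libraries.

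Other miRNAs known from brain and neuroendocrine cells varied in how they split between the libraries. Of 33 such arms tested, none was called between genotypes, and their median log2 fold change was 0.18 against 0.04 over all arms. Both 46 nt libraries lay higher than both 50 nt libraries in 13 of the 33 arms and lower in 3, against 172 (29.6%) and 180 of all 582 arms. The median log2 ratio of 46 nt over 50 nt libraries was 0.36 by exact match and 0.28 with the first 18 nt at base 1 or 3, against -0.043 by exact match and 0.048 by the other count over all arms. Their summed level was 1630 and 1441 CPM in Ago2 CD livers, against 1251 and 1414 CPM in wildtype livers. miR-153-3p, known from neurons, came nearest to mir-9 among those of at least 10 CPM, with 23.9 and 3.47 CPM in Ago2 CD livers, against 2.51 and 18.6 CPM in wildtype livers. Its log2 ratio of 46 nt over 50 nt libraries was 2.83 by exact match and 0.53 with the first 18 nt at base 1 or 3. miR-137-3p, a neuronal miRNA below 10 CPM that was chosen after its values were seen, had log2 ratios of 4.29 and 0.92 by these counts. Of its reads in the 50 nt libraries, 67.9% had 2 added bases, but they fell short of the 100 reads set above for such shares. The other listed arms below 10 CPM ranged from -1.01 (miR-504-5p) to 2.73 (miR-135b-5p) by exact match. miR-135a-5p had log2 ratios of 2.13 by exact match and 1.02 with the first 18 nt at base 1 or 3. miR-338-3p, known from oligodendrocytes, had 1.44 and 1.35, miR-132-3p 1.21 and 1.01, miR-219a-5p 0.87 and 0.88 and miR-708-5p 0.75 and 0.56. The ratios of miR-128-3p (0.26), miR-330-5p (0.24), miR-149-5p (0.13), miR-138-5p (0.05), miR-7a-5p (-0.04), miR-218-5p (-0.13), miR-326-3p (-0.22) and miR-7a-1-3p (-0.41) were small by exact match. These 8 arms thus had similar exact levels in libraries of both read lengths.

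**Figure D5:**
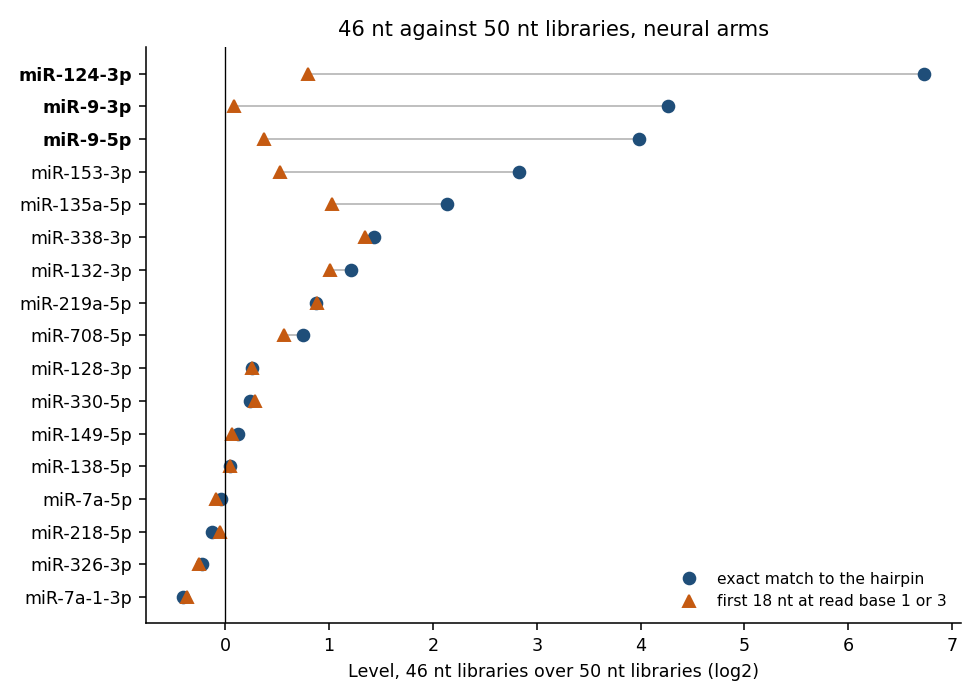
Log2 ratio of the level in 46 nt over 50 nt libraries (horizontal axis) for the arms of mir-9 and mir-124 (bold) and the other neural arms of at least 10 CPM (vertical axis), by exact match (circles) and by the first 18 nt at read base 1 or 3 (triangles). The 3 bold arms lie at 3.98 to 6.73 by exact match and at 0.084 to 0.80 by the other count.

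The arms whose exact levels over the 4 libraries were most like those of miR-9-5p were chosen by the distance between centred log2 CPM profiles among 365 arms. They were miR-181a-5p (distance 1.18), miR-154-5p (1.18), miR-153-3p (1.20), miR-379-5p (1.40) and miR-542-5p (1.60). miR-9-3p, as a member not among these candidates, lay at 0.39. The nearest to miR-124-3p were miR-379-5p (2.99), miR-154-5p (3.43), miR-181a-5p (3.43), miR-153-3p (3.60) and miR-802-5p (3.95). miR-181a-5p had 953 and 117 CPM in Ago2 CD livers, against 140 and 997 CPM in wildtype livers. Only 2.84% of its reads in the 50 nt libraries had 2 added bases, and for miR-154-5p and miR-379-5p the shares were 0.759% and 0.320%. These 3 arms share with mir-9 the split of 46 nt over 50 nt libraries, but within each read length the wildtype library was the higher one, unlike miR-9-5p. Their shares of reads with added bases were far lower than that of miR-9-5p.

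Markers of liver and of nerve cells were also read from the libraries. miR-122-5p, the defining miRNA of hepatocytes, had 62623 and 27531 CPM in Ago2 CD livers, against 19055 and 48649 CPM in wildtype livers, and was thus also higher in the 46 nt libraries. Of 10 hepatocyte arms tested, 5 lay higher in both 46 nt libraries and 2 lower. Over all 582 arms, 172 (29.6%) lay higher and 180 lower. The part of miR-122-5p in the levels of mir-9 and mir-124 was not tested. Fragments of Alb mRNA numbered 4943 and 2490 in Ago2 CD livers, against 674 and 1176 in wildtype livers. These are raw counts, not scaled to library size. Of 17 mRNAs that mark neurons, neural progenitors and glia, 14, Tubb3, Stmn2, Snap25 and Sox10 among them, had no fragment of at least 20 nt in any library. The others were Map1b, Nes and Gap43. Map1b had 1 and 6 fragments in Ago2 CD livers, against 0 and 0 in wildtype livers. Nes had 2 and 1 fragments in Ago2 CD livers, against 0 and 1 in wildtype livers. Gap43 had 1 fragment, in wildtype replicate 1. Fragments of these mRNAs were at or near 0 in every library. The share of all mRNAs without such a fragment was not counted, so it is not known whether these values are unusual. In tissue libraries, fewer cells of a type and less RNA per cell cannot be told apart.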

How the data were processed

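Per the labels' protocols, total RNA of frozen fetal livers was extracted with Trizol and libraries were made with a TruSeq small RNA kit by a modified procedure. Per the submitters' processing notes, cutadapt was used, with no version. The deposited files hold raw counts of identical reads. Aligner and trimming settings are not given in the sources used here. Reads with an undetermined base (0.183% to 0.256%) were left out. Reads were matched to GENCODE vM21 hairpins (GRCm38), and the arm is the side of the hairpin's midpoint. Identical arms of different hairpins were merged (by their first 18 nt or their top read), and ambiguous reads (0.00863% to 0.0290%) were dropped. Reads on arms numbered 7814143 to 14423067 per library.

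Levels were tested with edgeR 4.0.16 (quasi-likelihood test, TMM, filterByExpr, two-sided, Benjamini-Hochberg adjusted over all arms), and ratios and tails with limma 3.58.1, with a pseudocount of 0.5. DESeq2 1.42.0 and limma voom were alternatives. The ratio needed 20 or more reads of a hairpin per library, and the tailed share 200 or more reads of an arm. Tested on simulated data of 582 arms made for the comparison of Ago2 CD with wildtype, the edgeR step recovered 86% of 200 arms changed 8-fold. It also called 4 unchanged arms. That share is over all simulated changed arms. It does not give the recovery for the arms of mir-9 and mir-124, whose SE was 1.69 to 2.38 by exact match. Other software was R 4.3.3, Python 3.11.15 and SciPy 1.17.1.

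Hairpins and lists were chosen with earlier results of these data known. Named beside the hairpins' arms are the 5 arms nearest in profile to miR-9-5p and to miR-124-3p among arms of at least 10 CPM, other neural arms of at least 10 CPM, arms called between genotypes, and leading arms of comparison lists. Replicate numbers did not pair the libraries. The deviations of libraries with the same number had a correlation of -0.72, and those with the same longest read 0.72. With 2 libraries per genotype these values must be equal with opposite signs, so they are 1 observation. Whether the libraries of a genotype came from separate animals is given only by the design text's word for them. One marker mRNA of nerve cells is not reported here.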

Additional observations from a re-analysis of the deposited data

Results flagged for a closer look

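The genotype difference had opposite signs in the 46 nt and the 50 nt pair for 2 arms by exact match. For miR-9-3p the log2 difference of Ago2 CD over wildtype was 0.18 in the 46 nt libraries and -0.046 in the 50 nt libraries. For miR-124-3p it was -0.19 in the 46 nt libraries and 0.25 in the 50 nt libraries, where it rests on 6 reads in Ago2 CD replicate 2 and 3 in wildtype replicate 1. Each pair holds 1 library per genotype, and the difference between the pairs was not tested.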

How the results depend on the processing

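No arm of mir-9 or mir-124 passed the genotype threshold under any of the 17 alternatives run for its level (adjusted p 0.252 to 1.00), none of which applied to miR-124-5p. Signs were not stable. The log2 fold change of miR-124-3p (-0.19) was 0.34 with reads on arms as library size, which moved the median of all arms to 0.74 against 0.041, and 0.28 with limma voom. It was 0.074 with reads that have 2 extra nt at each end, and 0.037 with the first 18 nt at read base 1 or 3 and read length as batch term. That of miR-9-3p (0.17) was -0.061 with the first 18 nt at base 1 or 3 and -0.067 with read length added. Leaving out each library gave -2.68 to 3.53 for miR-9-5p, -3.27 to 3.46 for miR-9-3p and -5.65 to 5.87 for miR-124-3p, so 1 library decides the sign. The lowest values came without Ago2 CD replicate 1 and the highest without wildtype replicate 2, each a 46 nt library.

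The 2 arms called in all became 0 without mir-451a and mir-486 in the library sizes (14 at an unadjusted p under 0.05), 12 with no filter, 8 with DESeq2, 16 with read length as batch term, and 0 to 6 with a library left out. The 2 arms called in the main fit, miR-451a and miR-486-3p, are themselves arms of mir-451a and mir-486. Without those hairpins 564 arms were tested, against 582 in the main fit, and these 2 arms could not be called. The count of 0 therefore cannot show whether their calls depend on library size. The replicate block gave 3 calls and changed no call of mir-9 or mir-124, for which the blocked fold changes were 0.38 (miR-9-5p), 0.029 (miR-9-3p) and -0.11 (miR-124-3p). A crossed pairing of the replicate numbers, added after seeing the data, is the same fit as read length as batch term and gave 8 higher and 8 lower.

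The log2 ratio of 46 nt over 50 nt libraries stayed positive. With reads on arms as library size it was 4.31 (miR-9-5p), 4.64 (miR-9-3p) and 7.02 (miR-124-3p), and with all reads of at least 18 nt 4.64, 4.96 and 7.36. With tailed reads it was 2.59, 3.21 and 5.29, and 6.38 for miR-124-3p with reads of 16 to 36 nt. With 2 extra nt at each end it was 0.44, 0.063 and 0.63, and with the first 18 nt at base 1 or 3 it was 0.37, 0.084 and 0.80. The log2 ratio of tailed to untailed miR-9-5p reads differed between genotypes by -2.25 to 1.89 with a library left out, and its mean length by -0.089 to 0.039 nt, or by 0.10 nt for reads at the most frequent 5′ end. The 3p to 5p ratio kept its sign in all 10 alternatives. The few reads in the 50 nt libraries limit each value by exact match.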
